A study of Mus musculus with 4 samples.

Results

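The 61 genes described here are the developmental homeobox and paired-box genes outside the Hox clusters, of 21887 genes annotated as protein-coding on GRCm38.p6 (mm10). They were chosen by symbol alone, as all protein-coding genes whose symbol begins like that of Pax1, Lhx1, Dlx1, Six2, Nkx2-1, Irx1, Emx1, Otx1, Msx1, Gsx1 or Pitx1 and goes on with a number, which gave 11 families, all of them on autosomes. Membership follows from the symbol and uses no measured value, although the families were picked with earlier results of these data known. The assay was ATAC-seq: a transposase inserts into accessible chromatin, and peaks mark stretches hit more often than their surroundings. The cells were pachytene spermatocytes (meiotic cells whose autosomes are fully paired) isolated from mouse testes. In the BMH-21 group, 2 libraries came from cells given BMH-21, which inhibits RNA polymerase I, at 2.5 µM for 12 h, and in the mock group 2 libraries came from cells given only the vehicle DMSO. The labels give neither strain, age nor number of animals. They call the 2 libraries of a group biological replicates without saying whether these came from separate animals, so the spread between them may be technical.

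Homeobox genes encode transcription factors that bind DNA through a homeodomain and lay out the body plan, the brain, the eye, the limbs and the inner organs of the embryo. In cells that do not use them, many of these genes are held silent by Polycomb complexes over broad CpG-rich stretches. Pax genes are grouped by their paired domain. Of these, Pax3, Pax4, Pax6 and Pax7 also encode a full homeodomain, Pax2, Pax5 and Pax8 a partial one, and Pax1 and Pax9 none, so the family name covers some genes that are not homeobox genes in the strict sense.

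Peaks were called in each library by itself. The lists held 51234 and 55459 peaks in the BMH-21 libraries and 109230 and 117905 in the mock libraries. They covered 26.9 and 27.4 Mb in BMH-21 and 52.4 and 55.5 Mb in mock libraries. The design text states at least 50000000 reads per sample, but the total of each library is not given, so the depth behind a peak is unknown. A gene was said to have a peak if any peak overlapped it or lay within 1 kb of either of its ends, and its covered width is the number of bases of that window inside peaks. A gene present in both mock lists and neither BMH-21 list is called mock-only, and the reverse BMH-21-only. A gene without a peak in a list was below the threshold of the peak caller, which does not show closed chromatin.

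The labelled cell type was checked against marker genes. All of 10 pachytene markers, among them Sycp1, Sycp3 and Mybl1, had a peak in all 4 libraries, with 14714 and 14344 covered bp in BMH-21 and 20590 and 19914 bp in mock libraries. Markers of other testis cells had peaks too, and each list summed to a lower width in the BMH-21 libraries, although single markers did not all follow (the spermatogonial gene Etv5 had 1450 and 1445 bp in BMH-21 and 1284 and 1300 bp in mock libraries). Over 7 leukocyte markers the covered width was 145 and 209 bp in BMH-21 and 5231 and 4847 bp in mock libraries, 5 of the 6 with a peak in both mock libraries were mock-only, and the pan-leukocyte gene Ptprc had no peak in any library. Over 9 Sertoli cell markers it was 4290 and 4538 bp in BMH-21 and 16420 and 15372 bp in mock libraries, with 3 of 9 mock-only (Kitl, Inha and Fshr). Over 9 Leydig and peritubular markers it was 2202 and 2722 bp in BMH-21 and 6610 and 7984 bp in mock libraries, with Hsd3b1 and Acta2 without a peak in any library. The 5 endothelial markers all had a peak in all 4 libraries and so did 7 of the 8 spermatogonial markers, whose covered width was 8203 and 9036 bp in BMH-21 and 19861 and 21636 bp in mock libraries. Over 7 round spermatid markers it was 673 and 609 bp in BMH-21 and 2244 and 2616 bp in mock libraries. Of the 4 with a peak in both mock libraries 3 were mock-only, and Acrv1 and Tnp1 had no peak in any library. Over all protein-coding genes found in both mock lists 8.81% were mock-only. The part of these other testis cells in the results below was not tested, and fewer cells of a type cannot be told apart from less accessibility per cell.

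Upstream sequences are shown for 6 genes, to set genes with no peak after BMH-21 (Pax8, Gsx2 and Nkx2-9) beside one with a narrow remainder at its start (Six2) and 2 with peaks near their mock width (Nkx2-4 and Nkx6-2). Each is the 250 bases before an annotated start, taken from RefSeq on GRCm38.p6, written 5′ to 3′ on the strand of the gene, with CpG dinucleotides in capitals.
Pax8: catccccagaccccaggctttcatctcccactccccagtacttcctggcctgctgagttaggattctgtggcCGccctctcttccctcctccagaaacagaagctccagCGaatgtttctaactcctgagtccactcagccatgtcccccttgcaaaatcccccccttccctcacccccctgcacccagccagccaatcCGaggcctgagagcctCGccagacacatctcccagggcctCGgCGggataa
Gsx2: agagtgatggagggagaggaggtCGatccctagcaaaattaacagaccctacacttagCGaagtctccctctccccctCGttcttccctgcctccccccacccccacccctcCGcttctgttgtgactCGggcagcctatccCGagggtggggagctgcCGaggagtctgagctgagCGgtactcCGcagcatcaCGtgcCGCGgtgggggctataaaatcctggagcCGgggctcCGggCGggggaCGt
Nkx2-9: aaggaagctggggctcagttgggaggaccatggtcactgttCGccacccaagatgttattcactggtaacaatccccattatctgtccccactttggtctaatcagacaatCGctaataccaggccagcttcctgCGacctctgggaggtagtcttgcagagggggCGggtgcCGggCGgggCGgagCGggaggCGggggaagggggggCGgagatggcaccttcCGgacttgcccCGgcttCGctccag
Six2: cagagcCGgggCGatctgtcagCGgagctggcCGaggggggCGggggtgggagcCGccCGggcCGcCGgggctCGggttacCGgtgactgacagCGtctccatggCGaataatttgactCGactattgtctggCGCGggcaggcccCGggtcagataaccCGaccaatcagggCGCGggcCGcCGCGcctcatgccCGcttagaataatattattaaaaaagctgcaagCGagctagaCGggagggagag
Nkx2-4: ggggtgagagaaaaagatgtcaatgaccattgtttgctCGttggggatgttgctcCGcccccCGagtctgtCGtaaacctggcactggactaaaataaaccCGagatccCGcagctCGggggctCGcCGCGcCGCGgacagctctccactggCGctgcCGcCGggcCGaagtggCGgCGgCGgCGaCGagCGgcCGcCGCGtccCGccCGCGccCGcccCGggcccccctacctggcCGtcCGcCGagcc
Nkx6-2: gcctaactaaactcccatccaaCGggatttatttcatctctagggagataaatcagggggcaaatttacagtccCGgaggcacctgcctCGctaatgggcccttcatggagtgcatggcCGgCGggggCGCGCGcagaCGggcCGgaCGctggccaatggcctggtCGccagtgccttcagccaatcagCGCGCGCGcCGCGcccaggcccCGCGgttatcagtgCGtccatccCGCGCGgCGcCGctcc

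The Pax8 sequence (chr2:24475600-24475849, minus strand) held 6 CpG and lay outside the peaks of both BMH-21 libraries and the first mock library, with 46 bases inside a peak of the second mock library. The Gsx2 sequence (chr5:75075351-75075600, plus strand) held 16 CpG and had 0 and 0 covered bases in BMH-21 and 177 and 205 in mock libraries. The Nkx2-9 sequence (chr12:56613285-56613534, minus strand) held 13 CpG and had 0 and 0 covered bases in BMH-21 and 228 and 171 in mock libraries. These 3 sequences therefore had no base within a BMH-21 peak. The start used for Nkx2-9 lies within the annotated gene (chr12:56611389-56613569), so its sequence lies inside the gene. The Six2 sequence (chr17:85688255-85688504, minus strand) held 26 CpG and was covered over 10 and 0 bases in BMH-21 and over all 250 bases in both mock libraries. The Nkx2-4 sequence (chr2:147085346-147085595, minus strand) held 33 CpG, with 0 and 0 covered bases in BMH-21 and 160 and 126 in mock libraries, since the BMH-21 peaks of that gene ended at the start and lay downstream of these bases. The start used for Nkx2-4 also lies within the annotated gene (chr2:147083337-147085439), which the sequence overlaps in part. Only the Nkx6-2 sequence (chr7:139582798-139583047, minus strand), with 26 CpG, had more covered bases in both BMH-21 libraries (229 and 207) than in both mock libraries (129 and 174) among these 6.

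All 61 genes had a peak in both mock libraries, and 54 and 52 had one in the BMH-21 libraries. The mean was 53 ± 1.41 in BMH-21 and 61 ± 0 in mock libraries (SD, n = 2 each), a difference of -8.0. BMH-21 and mock values did not overlap. A two-sided exact permutation test gave p = 0.33, the smallest p that 2 against 2 libraries allow, so this design cannot pass a usual threshold. Presence alone was near the background: 6 of 61 genes (9.84%) were mock-only, against 8.81% of the 16920 protein-coding genes found in both mock lists and 9.05% of the autosomal ones. A peak in all 4 lists was found for 51 of 61 (83.6%). The share was 67.7% of all protein-coding genes and 68.3% of the autosomal ones, but 4206 and 3816 of these had no peak in any list. Of the 16920 protein-coding genes found in both mock lists, as all 61 were, 14823 had a peak in all 4 lists. Of the 16146 autosomal ones it was 14122. None of the 51 genes with a peak in both BMH-21 libraries was BMH-21-only, against a background of 0.718% (0.678% of autosomal genes).

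The width of the accessible stretches differed far more than their presence. Peaks covered 44641 and 44134 bp of the 61 gene windows in BMH-21 and 145945 and 144782 bp in mock libraries. The means were 44387.5 ± 359 bp in BMH-21 and 145364 ± 822 bp in mock libraries (SD, n = 2 each), a ratio of 0.305 (exact permutation p = 0.33, the smallest possible). Over all protein-coding genes the same ratio was 0.504, and over autosomal ones 0.487. Every one of the 61 genes was narrower in both BMH-21 libraries than in both mock libraries, against a background of 73.3% of protein-coding genes with any peak, and 74.0% of autosomal ones. None was wider, against 8.13% and 8.09%. The median over genes of the ratio of covered width was 0.306 for the homeobox genes and 0.573 for all protein-coding genes found in both mock lists. A ratio under 0.5 was found for 48 of 61 genes, or 78.7%, against 42.7% of those protein-coding genes (43.7% of autosomal ones), and a ratio under 0.25 for 26 of 61, or 42.6%, against 18.5% (18.9%).

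The difference exceeded the spread between libraries for most genes. Over the 61 genes the 2 BMH-21 libraries differed by a median of 176 bp and the 2 mock libraries by a median of 139 bp, while the group means differed by a median of 1380 bp. For 58 of 61 genes the fall of the mean was larger than the range within either group, against 70.9% of protein-coding genes found in both mock lists. The smallest gap between the groups, 42 bp, was that of the cardiac and pharyngeal factor gene Nkx2-6, and 3 genes had a gap under 100 bp. At least 1000 covered bp were found in both BMH-21 libraries for 9 genes (14.8%) and in both mock libraries for 55 (90.2%). Over protein-coding genes found in both mock lists these shares were 47.3% in BMH-21 and 73.6% in mock libraries.

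**Figure D1:**
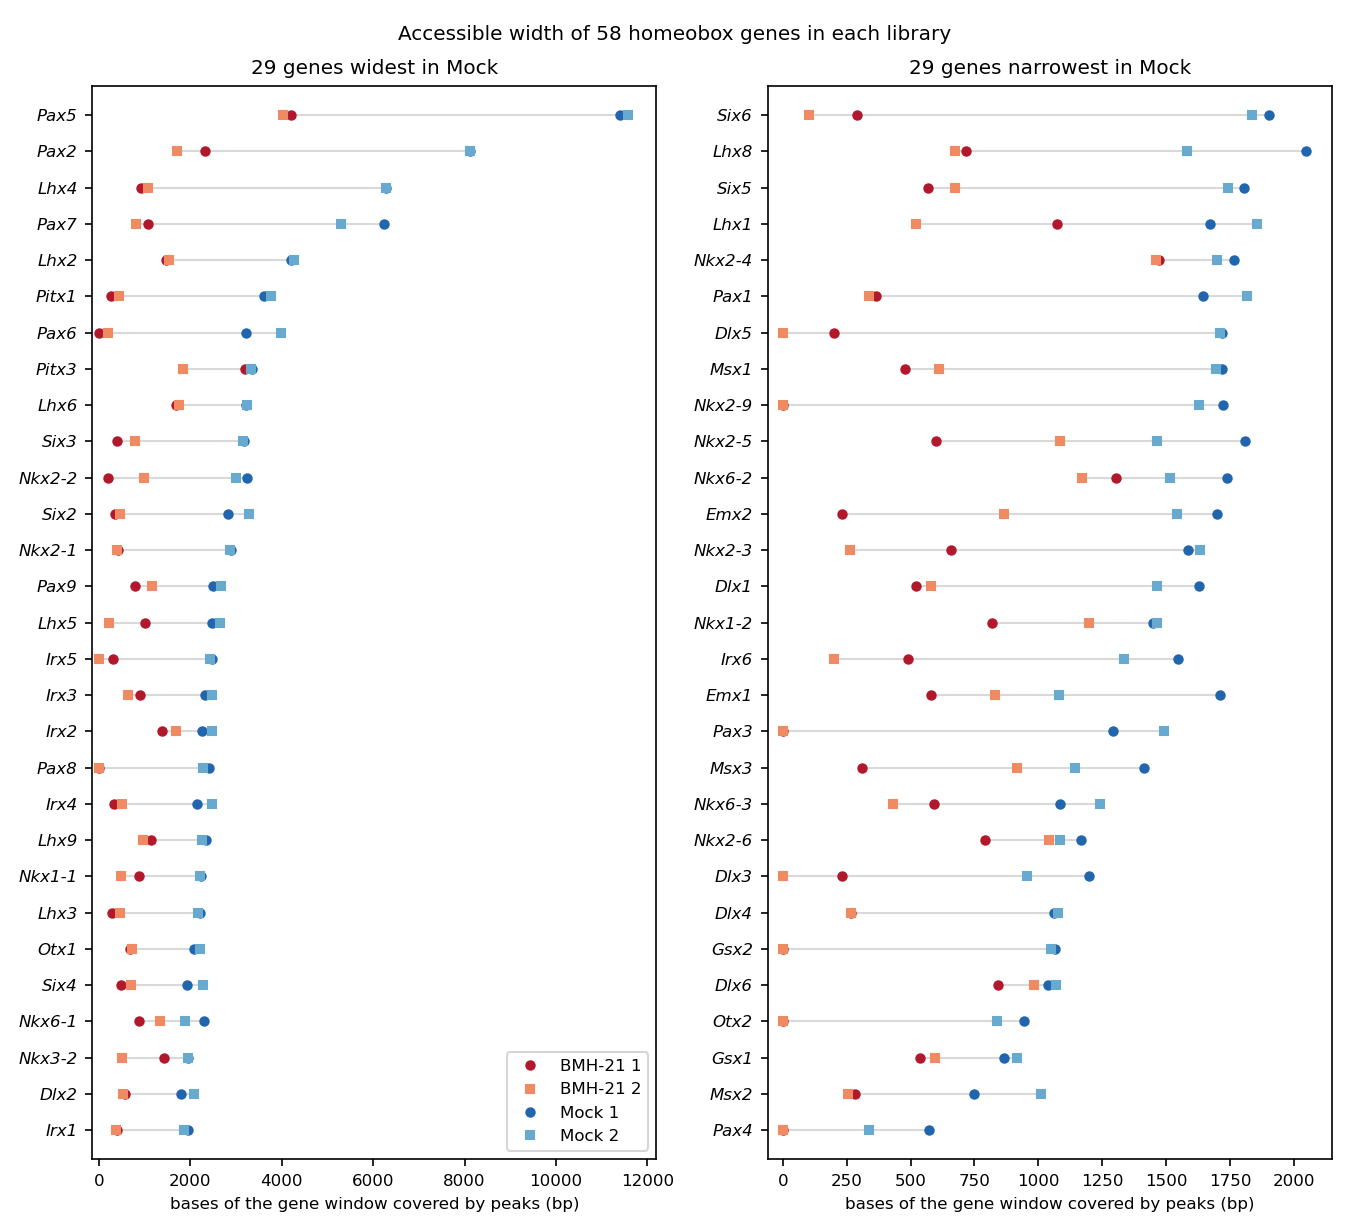
Covered width in bp (x axis) of 58 of the 61 homeobox genes (rows, ordered by mean width in mock) in each library, with BMH-21 1 in red, BMH-21 2 in orange and mock in blue, in 2 panels with their own scales; the grey line spans the 4 values. In every row both BMH-21 points lie left of both mock points, from Pax5 with 4194 and 4019 bp in BMH-21 and 11403 and 11575 bp in mock down to Pax4 with 0 and 0 bp in BMH-21 and 572 and 339 bp in mock.

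The 6 mock-only genes included 3 of the 9 Pax genes. Pax3, a regulator of muscle precursors and neural crest, had 0 and 0 covered bp in BMH-21 and 1292 and 1491 bp in mock libraries. One of its mock peaks lay inside the gene (chr1:78189502-78189988 in mock 1) and had a fold of 13.0 in mock 1 and 12.23 in mock 2 over the local background, as the authors' peak caller gave it. By fold this peak ranked at percentile 99.5 in mock 1 and 98.8 in mock 2. Folds are used here only to describe peaks within their own list. Pax8, needed for the thyroid and kidney, had 0 and 0 covered bp in BMH-21 and 2418 and 2268 bp in mock libraries, over 4 and 5 peaks, the strongest of which lay at the annotated start (fold 7.36 and 6.25). Pax4, a factor of pancreatic islet cells, had 0 and 0 bp in BMH-21 and 572 and 339 bp in mock libraries, the lowest mock values of the group. Absence of peaks was thus found both for a gene with a peak of high rank and for the gene narrowest in mock.

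The other 3 mock-only genes belonged to the Gsx, Otx and Nkx families. Gsx2, a patterning gene of the ventral forebrain, had 0 and 0 bp in BMH-21 and 1064 and 1050 bp in mock libraries, in a single peak over its start (chr5:75075424-75076487 in mock 1) that takes in most of the upstream sequence printed above. Otx2, a head and eye regulator, had 0 and 0 bp in BMH-21 and 944 and 840 bp in mock libraries, in 2 peaks of each list. With the lists reduced to equal length Otx2 had no peak in any library, so its mock-only call ended there. Nkx2-9, a gene of the ventral neural tube, had 0 and 0 bp in BMH-21 and 1723 and 1628 bp in mock libraries, in 2 peaks that together took in most of the gene. In 4 further genes only 1 BMH-21 library had a peak. Pax6, the eye regulator, had 0 and 207 bp in BMH-21 and 3214 and 3986 bp in mock libraries. Dlx5 had 200 and 0 bp in BMH-21 and 1719 and 1712 bp in mock libraries, Dlx3 had 233 and 0 bp in BMH-21 and 1198 and 956 bp in mock libraries, and Irx5 had 305 and 0 bp in BMH-21 and 2481 and 2433 bp in mock libraries. These 4 were next to mock-only, and without the first BMH-21 library the number of mock-only genes was 9, without the second it was 7.

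A peak in all 4 lists need not be the same peak. At Dlx4, Irx6, Lhx5, Nkx2-2 and Pax7, no base covered in both mock libraries was covered in both BMH-21 libraries. Among the 51 genes with a peak in all 4 lists, the lowest ratio was that of Pitx1, which shapes the hindlimb and pituitary. It had 259 and 433 bp in BMH-21 and 3605 and 3771 bp in mock libraries, a ratio of 0.0938. The single BMH-21 peak (chr13:55828383-55828641 in BMH-21 1) overlapped an interior mock peak, the one with the lowest fold of the 5 mock peaks, while the 3 mock peaks at the gene ends had no counterpart. Its relative Pitx3, a gene of the lens and of dopamine neurons, had 3193 and 1837 bp in BMH-21 and 3344 and 3336 bp in mock libraries, a ratio of 0.753. Here 5 peaks in BMH-21 1 and 4 in BMH-21 2 lay where each mock library had 2 broad ones (1726 and 1618 bp in mock 1), except for 1 farther inside the gene in BMH-21 1. The second BMH-21 library accounts for most of the difference at Pitx3, since the first lay within 200 bp of the mock values.

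**Figure D2:**
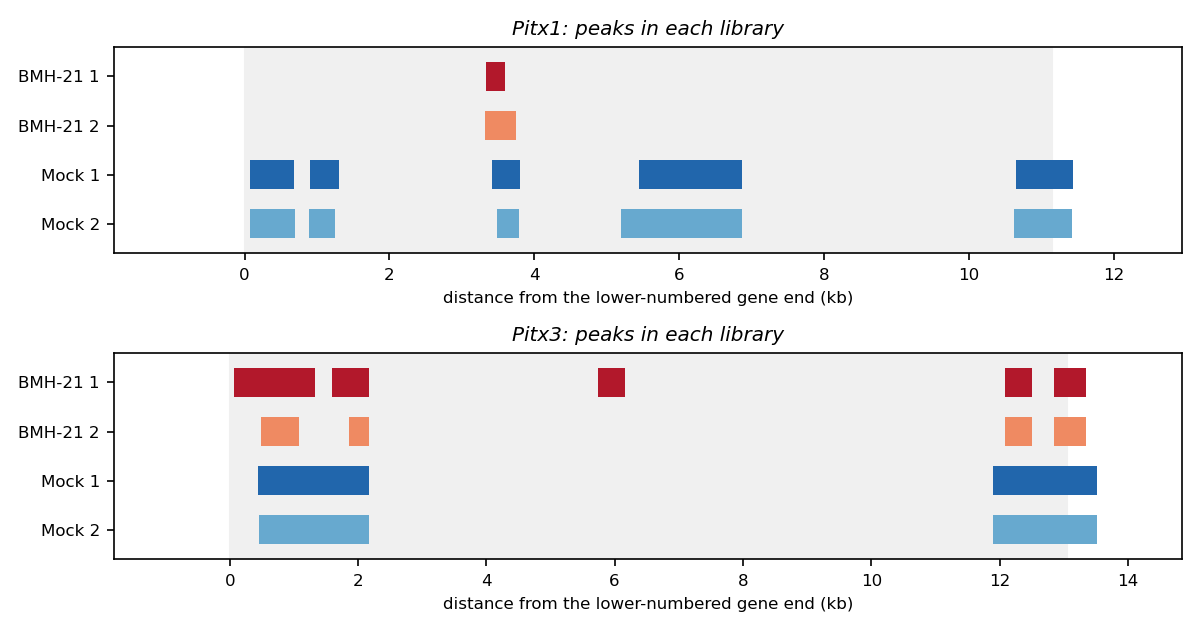
Peaks (bars, to scale) of each library along Pitx1 (top) and Pitx3 (bottom), with the distance in kb from the lower-numbered gene end on the x axis and the gene shaded grey. Pitx1 has 1 peak in each BMH-21 library against 5 in each mock library, whereas at Pitx3 both ends carry peaks in all 4 libraries and the mock peaks are broader than most BMH-21 peaks.

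The sine oculis homeobox genes (Six2 and its relatives), whose proteins act with Eya cofactors in eye, muscle and kidney, had the lowest summed ratio of the 11 families, 0.219. Six6, of the retina and pituitary, had 292 and 102 bp in BMH-21 and 1901 and 1838 bp in mock libraries. Six2, a marker of kidney progenitors, had 346 and 467 bp in BMH-21 and 2828 and 3289 bp in mock libraries. At its start, beside the CpG-dense sequence shown above, BMH-21 peaks were 346 bp wide in the first library and 242 and 225 bp in the second, against a mock peak of 1436 and 1435 bp. Six3, of the forebrain and eye, had 389 and 790 bp in BMH-21 and 3165 and 3148 bp in mock libraries. All 6 members of the family lay between 0.105 and 0.35 in ratio, so that no member of this family came near its mock width.

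The Pax genes summed to 8734 and 8251 bp in BMH-21 and 37391 and 37553 bp in mock libraries, a ratio of 0.227. The widest genes of the group belong here. Pax5, the B cell identity factor, had 4194 and 4019 bp over 9 and 10 peaks in BMH-21 and 11403 and 11575 bp over 25 and 25 peaks in mock libraries. Pax2, of kidney and midbrain, had 2316 and 1700 bp over 7 and 5 peaks in BMH-21 and 8116 and 8110 bp over 13 and 11 peaks in mock libraries. Peaks of 316 and 322 bp in the first BMH-21 library and 1 of 295 bp in the second lay within its broadest mock peak, of 2068 and 2073 bp (chr19:44755614-44757681 in mock 1). Pax7, of muscle stem cells, had 1077 and 823 bp in BMH-21 and 6244 and 5293 bp in mock libraries. In these 3 long genes both the number of peaks and the summed width were lower in each BMH-21 library than in each mock library. Pax1 of the vertebral column had a ratio of 0.203 and Pax9 of teeth and pharyngeal pouches one of 0.377, the highest among the Pax genes.

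The Lhx genes encode LIM-homeodomain factors that work with the cofactor Ldb1, and Lhx9 is known for its role in forming the gonad. All 8 had a peak in all 4 lists, and they summed to 8334 and 7217 bp in BMH-21 and 24446 and 24308 bp in mock libraries, a ratio of 0.319. Lhx4, of the pituitary, had 932 and 1066 bp in BMH-21 and 6281 and 6282 bp in mock libraries, over 1 and 2 peaks in BMH-21 and 13 and 12 in mock libraries. The peak common to the 4 lists, inside the gene, had 932 and 848 bp in BMH-21 and 1147 and 1121 bp in mock libraries, so that most of the difference came from the other peaks. Lhx3 had 298 and 464 bp in BMH-21 and 2207 and 2175 bp in mock libraries. Lhx2 had 1470 and 1542 bp in BMH-21 and 4193 and 4272 bp in mock libraries. Lhx6, of cortical interneurons, had 1687 and 1758 bp in BMH-21 and 3212 and 3233 bp in mock libraries, the highest ratio of this family (0.535). Its strongest peak, inside the gene, was close to equal in width, with 1027 and 944 bp in BMH-21 and 1102 and 1052 bp in mock libraries. Lhx9 had 1151 and 975 bp in BMH-21 and 2353 and 2252 bp in mock libraries, and its groups did not overlap either.

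The 14 Nkx genes, many of which pattern the ventral neural tube, the heart and the gut, had the highest summed ratio of the families, 0.43, and also the widest range, 0.0 to 0.847. Nkx2-1, of thyroid, lung and forebrain, had 408 and 389 bp in BMH-21 and 2894 and 2873 bp in mock libraries. The BMH-21 peak of 408 and 389 bp lay at one side of a mock peak of 1961 and 1970 bp. Nkx2-2 had 208 and 980 bp in BMH-21 and 3241 and 2995 bp in mock libraries, and none of the bases covered in both mock libraries was covered in both BMH-21 libraries. In contrast, some of the highest ratios of the whole group were those of Nkx genes. Nkx2-4 had 1474 and 1459 bp in BMH-21 and 1764 and 1698 bp in mock libraries, in each case in a single peak, and 85.7% of the bases common to the mock libraries were covered in both BMH-21 libraries. Nkx2-6 had 790 and 1043 bp in BMH-21 and 1167 and 1085 bp in mock libraries, and Nkx6-2 had 1305 and 1171 bp in BMH-21 and 1737 and 1515 bp in mock libraries. For these 3 the groups were apart but close. With the lists reduced to equal length Nkx2-6 was wider in BMH-21 by a mean of 135.5 bp, and counting only bases near the gene ends Nkx6-2 was wider by a mean of 6.5 bp.

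The remaining families were intermediate. The summed ratio was 0.231 for the 2 Otx genes, 0.279 for the 6 Irx genes, 0.29 for the 2 Gsx genes, 0.297 for the 6 Dlx genes, 0.369 for the 3 Msx genes, 0.381 for the 3 Pitx genes and 0.415 for the 2 Emx genes. Within the Irx family Irx2 had 1372 and 1677 bp in BMH-21 and 2264 and 2468 bp in mock libraries, while Irx4, a heart ventricle gene, had 329 and 509 bp in BMH-21 and 2152 and 2468 bp in mock libraries. Emx1, of the cerebral cortex, and Msx3 differed more between replicates. Emx1 had 581 and 831 bp in BMH-21 and 1711 and 1080 bp in mock libraries, and Msx3 had 309 and 916 bp in BMH-21 and 1415 and 1145 bp in mock libraries. The widest single peak of other families lay in a mock library in each case, with 2299 bp at Nkx6-1, 2055 bp at Irx3, 1432 bp at Lhx2, 1415 bp at Msx3, 1338 bp at Dlx2, 1080 bp at Emx1, 1074 bp at Otx1 and 1064 bp at Gsx2.

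Neighbouring genes often had unlike values. The closest 2 genes, Dlx1 and Dlx2, lay 9.43 kb apart, and windows reached only 1 kb beyond a gene. No peak was wider than 3797 bp, so none could reach from one window into another, and no merged region was common to 2 windows. The Dlx pairs share enhancers in the embryo, but sharing of enhancers was not examined here. Dlx6 had 843 and 984 bp in BMH-21 and 1039 and 1070 bp in mock libraries, a ratio of 0.866 and the highest of the group, while Dlx5, which lies 9.83 kb away, had a ratio of 0.0583. At Dlx6 the BMH-21 lists held a peak of 334 and 339 bp before the gene that ranked at percentile 95.3 and 96.0 of those lists. In the mock lists the peak at that place was 249 and 275 bp wide and ranked at 27.9 and 39.9, and ranks from lists of unequal length show no change. On chromosome 2 the ratio was 0.847 at Nkx2-4, 0.191 at Nkx2-2, which lies 91 kb further on, and 0.203 at Pax1 166 kb beyond that. On chromosome 12 Nkx2-1, Nkx2-9 and Pax9 had ratios of 0.138, 0.0 and 0.377. On chromosome 17 Six3 and Six2, 36.5 kb apart, had ratios of 0.187 and 0.133. Whether neighbours resemble each other more than other pairs was not tested.

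The peaks themselves were fewer and shorter, and the number followed the background while the width did not. The 61 windows held 95 and 102 peaks in BMH-21 and 226 and 224 in mock libraries, a ratio of 0.438, close to that of 0.451 over all protein-coding genes. The covered width per peak was 470 and 433 bp in BMH-21 and 646 and 646 bp in mock libraries, a ratio of 0.699 (exact permutation p = 0.33, the smallest possible). Over all protein-coding genes it was 618 and 582 bp in BMH-21 and 541 and 531 bp in mock libraries, a ratio of 1.12. Their median width was 422 and 364 bp in BMH-21 and 508 and 540 bp in mock libraries, while the median over the whole lists was 396 and 365 bp in BMH-21 and 358 and 351 bp in mock libraries. By the median, peaks at homeobox genes were thus about as wide as those of the whole list in BMH-21 and wider in mock libraries. In covered width per peak they were below the peaks of all protein-coding genes in BMH-21 and above them in mock libraries. Peaks of at least 1000 bp numbered 7 and 2 in BMH-21 and 39 and 41 in mock libraries. They made up 7.37% and 1.96% of the homeobox peaks in BMH-21 and 17.3% and 18.3% in mock libraries, against 11.5% and 9.58% of all peaks of the BMH-21 lists and 8.41% and 7.96% of all peaks of the mock lists. The widest peak of a gene was narrower in both BMH-21 than in both mock libraries for 59 of 61 genes (96.7%), against a background of 58.0%. The number of peaks was lower in both for 38 (62.3%), near the background of 57.7%.

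Both gene ends and gene interiors contributed. Within 1 kb of a gene end 41 and 38 genes had a peak in BMH-21 and 58 and 58 in mock libraries, with 23511 and 22945 covered bp in BMH-21 and 62804 and 61679 bp in mock libraries (ratio 0.373, against 0.779 over all protein-coding genes). Farther inside, the covered width was 21130 and 21189 bp in BMH-21 and 83141 and 83103 bp in mock libraries (ratio 0.255, against 0.33). The distance to the background was thus larger at the gene ends. For neither measure did the groups overlap (exact permutation p = 0.33 each, the smallest possible). At gene ends 14 of the 57 genes with such a peak in both mock libraries were mock-only, or 24.6%, against a background of 11.5% (11.7% of autosomal genes). Of these 14, Dlx1, Irx5, Nkx2-1, Nkx2-2, Nkx6-3, Pax7, Pax9, Pitx1 and Six3 had a peak inside the gene in at least 1 BMH-21 library. Inside the genes 14 of 48 were mock-only (29.2%), near the background of 30.5% (31.7%).

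Counted as regions, after peaks of the 4 lists were merged, the picture was similar. Of 88 gene-end regions present in both mock libraries 32 were mock-only, or 36.4% (exact Clopper-Pearson 95% interval 26.4 to 47.3%, counting error only), against 25.9% at the ends of all protein-coding genes. Of 106 interior regions 71 were mock-only, or 67% (57.2 to 75.8%), against 70.5% inside all protein-coding genes. Of 74 regions present in both BMH-21 libraries 4 were BMH-21-only, against 2926 of 23073 over all protein-coding genes. Of the 4 at homeobox genes, 3 lay inside Lhx9, Nkx2-2 and Pax7 and 1 beside the end of Emx1. The one in Pax7 (chr4:139789816-139790347) held peaks of 532 and 338 bp with folds of 7.02 and 6.75, and the one in Nkx2-2 (chr2:147178820-147179028) peaks of 208 and 205 bp.

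Base by base, 129097 positions of the 61 windows were covered in both mock libraries, and 22.0% of these were covered in both BMH-21 libraries and 63.3% in neither. Over all protein-coding genes 42.5% were covered in both and 48.4% in neither. Conversely 2330 bases were covered in both BMH-21 lists and in no mock list, 7.21% of the bases common to the BMH-21 libraries, against 11% over all protein-coding genes. For 39 of 61 genes (63.9%) there was no such base, against 45.9% of protein-coding genes found in both mock lists.

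Transcription starts from RefSeq were at hand for 44 of the 61 genes and for 17492 protein-coding genes in all, and the first listed start of each gene was used. The 17 genes without one in the table included Dlx3, Dlx4, Dlx5, Dlx6, Irx1, Irx5, Irx6, Lhx5, Nkx2-6, Nkx6-3, Otx1, Pax3, Pax4 and Pitx1. The start itself lay in a peak for 36.4% and 38.6% of the 44 genes in BMH-21 and for 68.2% in each mock library. For all protein-coding genes it did so for 54.5% and 54.7% in BMH-21 and 60.5% and 61% in mock libraries. Homeobox starts were thus covered less often than the average start in BMH-21 libraries and more often in mock libraries. In the 250 bases upstream, at least 1 base was covered for 19 and 19 of the 44 genes in BMH-21 and 35 and 35 in mock libraries. That is 43.2% in each BMH-21 and 79.5% in each mock library, while for all protein-coding genes it was 55.4% and 55.8% in BMH-21 and 61.6% and 62.0% in mock libraries. With any listed start and 1 kb to either side, 8 of 41 genes were mock-only (19.5%), against a background of 9.93% (10.1% of autosomal genes). These were Gsx2, Nkx2-1, Nkx2-2, Nkx2-9, Otx2, Pax7, Pax8 and Six6.

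From 1 kb downstream of the start on, peaks were more frequent at the homeobox genes than over all protein-coding genes, in all 4 libraries. At 2 kb downstream of the start 9.09% of the 44 genes were covered in each BMH-21 library and 20.4% and 18.2% in the mock libraries, against 0.95% and 0.99% in BMH-21 and 3.25% and 3.21% in mock libraries for all protein-coding genes. Averaged over 1 to 5 kb downstream the homeobox genes were covered at 2.92% and 4.03% of positions in BMH-21 and 13.2% and 13.9% in mock libraries. Upstream over the same distance the values were 1.96% and 2.07% in BMH-21 and 5.63% and 4.86% in mock libraries. By this average, coverage of the homeobox genes was higher toward the gene than upstream in all 4 libraries. Over all protein-coding genes the downstream values were 1.27% and 1.27% in BMH-21 and 3.41% and 3.48% in mock libraries. Upstream they were 1.27% and 1.28% in BMH-21 and 2.37% and 2.44% in mock libraries. Single distances did not all follow the average. At 1 kb the homeobox genes had 11.4% upstream in each BMH-21 library and 6.82% and 9.09% downstream. In mock libraries it was 6.82% and 11.4% upstream and 31.8% and 36.4% downstream. At 4 kb both sides had 2.27% in each BMH-21 library.

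**Figure D3:**
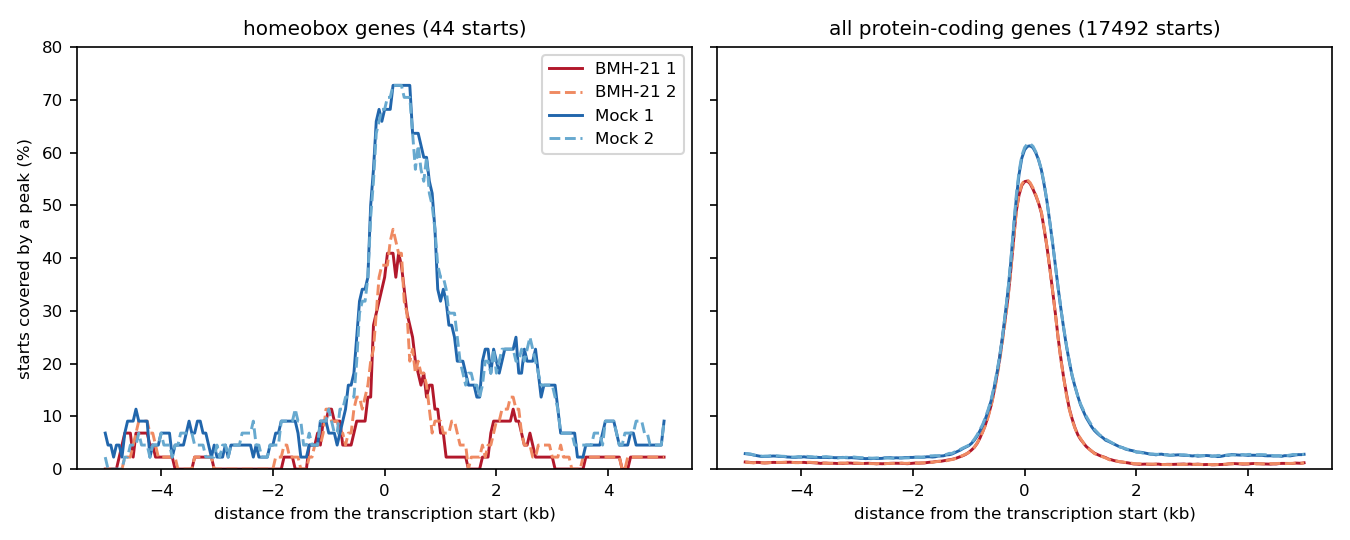
Share of transcription starts (y axis, %) with a peak at each distance in kb from the start (x axis, negative upstream), for 44 homeobox genes (left) and 17492 protein-coding genes (right), 1 line per library with BMH-21 in red and mock in blue. On the left the BMH-21 lines peak at 40.9% and 45.5% and the mock lines at 72.7% each, with lower bumps near 2 kb downstream; on the right the lines peak at 54.6% and 54.8% in BMH-21 and 61.3% and 61.6% in mock.

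The upstream sequences of the 44 genes were rich in CpG, a property that the choice by name did not use. In the 300 bases about each first start they held a median of 19 CpG (4 to 40), a GC content of 62.7% and a ratio of observed to expected CpG of 0.72. The medians over all protein-coding genes were 13 CpG, 56.3% and 0.58. A ratio of at least 0.6 was found for 29 of 44 (65.9%), against 48.3% of all protein-coding genes. The 4 letters TAAT, the core bound by many homeodomains, or ATTA as the same motif on the other strand, occurred in 23 of the 44 windows (52.3%), against 52.5% of all 17492 windows. A match is a description of the letters only.

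CpG content and mock-only status went together across the genome, and the homeobox genes can be read against genes of the same kind. None of the 29 genes with a CpG ratio of at least 0.6 was mock-only, against 1.65% of the 8350 protein-coding genes of that kind found in both mock lists. A peak in all 4 lists was found for 28 of 29, against 96.0% of all 8453 protein-coding genes of that kind, with or without a mock peak. All 29 were narrower in both BMH-21 libraries (73.6% of CpG-rich genes were), none was wider (8.6%) and none was BMH-21-only (0.135%). At gene ends 4 of 27 were mock-only (Dlx1, Nkx2-2, Pax9 and Six3), against 3.77%, and at starts 2 of 28 (Nkx2-2 and Six6), against 2.66%. Inside the gene it was 5 of 22, against 29.1%. Of the 15 under 0.6, 4 were mock-only (Gsx2, Nkx2-9, Otx2 and Pax8), or 26.7%, against 19.4% of 5095 protein-coding genes. Width differed in both kinds. The median ratio of covered width was 0.338 for the 29 CpG-rich homeobox genes, against 0.654 for CpG-rich genes in general, and 22 of 29 (75.9%) had a ratio under 0.5, against 33.4%, and 8 of 29 one under 0.25, against 8.23%. It was 0.248 for the 15 CpG-poor ones, against 0.445 for CpG-poor genes in general. These strata were chosen after the data were seen.

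Genes that are broad in mock had lower ratios in general, so the homeobox genes were also set beside genes of like mock width. At 1000 to 2000 bp of mean mock width the median ratio was 0.344 for 28 homeobox genes and 0.724 for all 6376 protein-coding genes. At 2000 to 4000 bp it was 0.284 for 23 homeobox genes and 0.481 for all 4594, and from 4000 bp on it was 0.248 for 5 and 0.333 for 2115. The class of 500 to 1000 bp held only 4 homeobox genes (0.47 against 0.894), and the class under 500 bp only Pax4. The ratio was lower for the homeobox genes in the 4 classes from 500 bp on, and it was 0.0 for both in the class under 500 bp.

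The surroundings of the genes were narrower too. From 1 to 10 kb beyond the gene ends 17.83 and 17.3 bp per kb were covered in BMH-21 and 50.07 and 52.45 bp per kb in mock libraries, a ratio of 0.343. From 10 to 50 kb away the values were 10.68 and 11.72 bp per kb in BMH-21 and 30.28 and 32.55 bp per kb in mock libraries, a ratio of 0.356. The corresponding ratios about all protein-coding genes were 0.501 and 0.487. Within the genes and 1 kb about them 37.03 and 36.6 bp per kb were covered in BMH-21 and 121.05 and 120.08 bp per kb in mock libraries, against 18.23 and 18.36 bp per kb in BMH-21 and 35.58 and 36.97 bp per kb in mock libraries for all protein-coding genes. The density about the homeobox genes therefore dropped off with distance in all 4 libraries, while the ratio between the groups changed little.

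**Figure D4:**
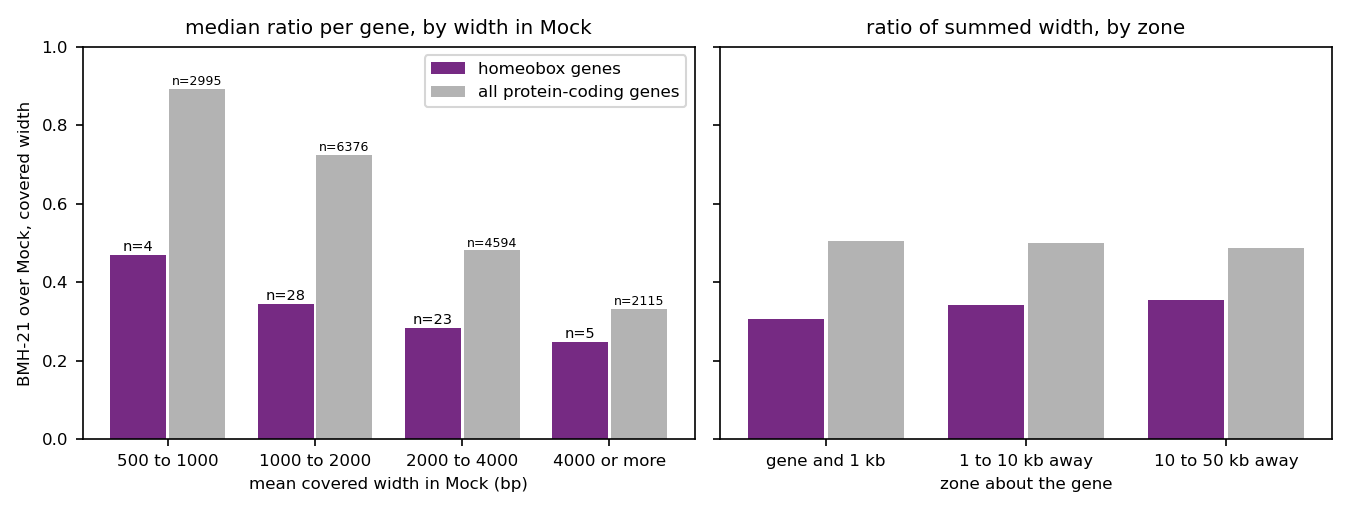
Ratio of covered width, BMH-21 over mock (y axis, from 0), for homeobox genes (purple) and all protein-coding genes (grey). Left, the median over genes in classes of mean mock width, with the number of genes above each bar; right, the ratio of summed width by distance from the gene. The purple bars are lower than the grey ones in the 4 classes drawn, from 500 bp on, with 0.284 against 0.481 at 2000 to 4000 bp, and in each zone, with 0.356 against 0.487 at 10 to 50 kb.

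Other gene groups of development were counted in the same way. Of 97 other homeobox genes, such as the Pou, Meis and Pbx families, 93 had a peak in each mock list and 11 of these were mock-only (11.8%), with a median ratio of 0.387. The 39 Hox cluster genes, which pattern the body axis, had 3 mock-only genes (7.69%) and a median ratio of 0.34, and the 44 forkhead genes had 4 mock-only genes (9.09%) and a median ratio of 0.389. Of 22 signals and signal components of patterning, such as Shh and Wnt1, 3 were mock-only (Bmp4, Fgf10 and Lefty1), or 13.6%. The 22 had a summed ratio of 0.301 and a median ratio of 0.3. Of 25 cofactors found in the annotation, whose Pbx and Meis genes are also among the other homeobox genes, 5 were mock-only (Eya1, which acts with SIX2, Ldb2, a Lhx partner, Dach1, Lmo3 and Meis2), and Ldb1 had a peak in all 4 lists. All 27 genes of Polycomb subunits had a peak in all 4 lists, with a median ratio of 0.564. The share narrower in both BMH-21 libraries, 61 of 61 for the genes described here, was 22 of 22 for the patterning signals, 97.7% for the forkhead genes, 96.8% for the other homeobox genes with any peak and 94.9% for the Hox genes. It was 92.0% for the cofactors and 88.9% for the Polycomb genes. The share was thus above the 73.3% of all protein-coding genes with any peak in each of these groups. The median ratio of 0.306 of the 61 genes lay close to that of the patterning signals. Whether these groups differ was not tested.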

How the data were processed

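ATAC-seq libraries were made from about 10000 cells per sample with 14 PCR cycles and read as paired 150 bp reads, per the labels' protocols. The series' design text names other kits, so the library chemistry is uncertain. Tools named by the submitters' processing notes are MACS2 2.1.0, deepTools, bedtools, Bowtie2 and fastp, with the builds mm39 and mm10. Their roles, duplicate removal and read shifting are not given in the sources used here. Positions were read as mm10 and are printed 1-based, because on chromosome 1 they reach 195371813, beyond that chromosome's end in mm39. Each library has 1 deposited peak list. Per peak it gives the deposited fold (a ratio of summit to local background), the deposited −log10 p and q, and the deposited score (10 times −log10 q, rounded down). None of these is normalised between libraries, so presence and covered width were compared, and both depend on each library's depth, which is not known.

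Genes, windows of 1 kb, classes, widths and exact tests were computed with Python 3.11.15, numpy 2.4.6, pandas 2.3.3 and scipy 1.17.1. The annotation is RefSeq's gene table of GRCm38.p6. Genes are not replicates, so counts over genes stand beside the background without a test. On simulated lists with 200 genes stripped of peaks, 200 were recovered as mock-only. The genes and lists were chosen with earlier results of these data known. Values were given for mock-only genes, the 10 widest in mock, the 10 lowest and 5 highest ratios and the widest peak of a family, except 3 genes that are counted but not reported singly here. The promoter sequences shown, neighbour pairs, flanks, CpG and width classes, autosomal backgrounds and equal autosomal lists were chosen after seeing the data. Alternatives were a stricter −log10 q of 5, lists of equal length, summit windows of 100 bp to either side, windows of 500 bp and 2.5 kb, gene ends only, a 50% overlap, leaving out each library, and pairing by replicate number.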

Additional observations from a re-analysis of the deposited data

How the results depend on the processing

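All 61 genes were narrower in both BMH-21 libraries under a stricter threshold, against 73.5% of protein-coding genes with any peak. All 61 were so under windows of 500 bp and 2.5 kb too, as in the comparison reported. Without any 1 library all 61 were narrower as well, but 1 library then stands against 2, which any gene meets more easily. With lists of equal length 58 of the 60 with any peak were narrower in both BMH-21 libraries, against 54.3% of all protein-coding genes. The ratio of summed width was then 0.374, against 0.715. With equal autosomal lists, chosen after seeing the data, it was 56, against 51.2%. With gene ends only it was 55 of 59, against 55.1%. The ratio of summed width lay between 0.29 and 0.384 over the alternatives for which it was computed and between 0.304 and 0.307 when 1 library was left out. The count of mock-only genes was 4 to 9, except with gene ends only. There it was 14 of the 57 genes with an end peak in both mock libraries (24.6%), against 11.5% of protein-coding genes, and the cause was not tested. The mock-only share of interior regions was 54.0% with equal list lengths, against 53.2% for all protein-coding genes, and the cause was not tested. With summit windows, which give every peak 1 width, the median ratio per gene was 0.5 for the 61 genes and 0.5 for all protein-coding genes. With equal lists the width difference of 14 of 61 genes was over 1.5 times smaller (Pax5 -2833.5 in place of -7382.5 bp, Lhx4 -2414.5 in place of -5282.5 bp, Pax7 -1952.0 in place of -4818.5 bp, Lhx9 -387.5 in place of -1239.5 bp), and with gene ends only that of 36. That of Otx2 was 0.0 with equal lists. Single genes changed direction in 2 cases, Nkx2-6 with equal lists (135.5 bp) and Nkx6-2 with gene ends only (6.5 bp). None of the 61 symbols names an opposite-strand gene, so leaving such genes out changed nothing. With the replicate number as a block, the difference in genes with a peak was -8.0 and the ratio of summed width 0.305 (exact permutation within pairs, p = 0.5 each, the smallest possible). Whether the replicate numbers pair the libraries is not known. The differences between replicates 1 and 2 in the 2 groups correlated at -0.08 over the 61 genes and 0.09 over all protein-coding genes. With 1 such difference per group these values cannot decide it. Read depth is unknown, and 2 libraries per group set the smallest p at 0.33.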
